A study of Mus musculus with 45 samples.

Results

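The 10 genes described here, Cdk1, Ccnb1, Ccna2, Aurka, Aurkb, Plk1, Bub1, Bub1b, Ttk and Nek2, encode mitotic kinases and cyclins. They were taken by name from the 55401 genes of the deposited count tables, and the rule uses no measured value. The list was nevertheless chosen with earlier results of these data known. Counts of its members beside shares of all genes are therefore a description. All 10 passed the filter on low counts (at least 6 fragments in 20% of the mice) in both sexes, among 15991 protein-coding genes in males and 15968 in females. The libraries hold messenger RNA bound by tagged ribosomes of kidney tubule cells (translating ribosome affinity purification, TRAP) from 45 mice at 7 weeks of age (postnatal day 49). Every mouse carried the Cre-activated RosaEGFP-Rpl10a ribosomal tag, Pax8rtTA and TetOCre, and per the study's methods all received doxycycline from postnatal day 28 to day 42. Pax8rtTA directs the deletion and the tag to tubule cells, so other cells of the kidney were not meant to contribute. Noncystic mice (8 males, 7 females) were Pkd1 fl/+, and so lost a single copy of Pkd1 in these cells. Pkd1KO mice (7 males, 8 females) were Pkd1 fl/fl. Pkd1KO+ciliaKO mice (9 males, 6 females) were Pkd1 fl/fl and Kif3a fl/fl, which removes a motor subunit needed to build cilia. The mice were studied before cysts had formed, and the question was which transcripts change on loss of Pkd1 and whether that change needs an intact cilium.

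A dividing cell enters mitosis when Cdk1, bound to cyclin A2 and then to cyclin B1, becomes active. Aurora kinases and Plk1 then build the spindle and attach the chromosomes, Bub1, Bub1b and Ttk hold anaphase back until every chromosome is attached, and Nek2 separates the centrosomes. These genes are transcribed mainly late in the cell cycle, and most tubule cells of an adult kidney are not dividing.

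Promoter sequences were taken from RefSeq (mouse build GRCm38.p6), where 8 of the 10 genes had an entry running from 250 bases before to 50 bases after the annotated start. These windows were searched on both strands for CCAAT, the letters bound by NF-Y, and for TTTGAA and TTCGAA, the core letters of the cell cycle homology region that represses mitotic promoters in resting cells. No CCAAT copy overlapped a copy of the other letters. The letters CCAAT stood in 8 of 8 member promoters and in 37.4% of the 32851 promoters of the table. TTTGAA or TTCGAA stood in 6 of 8, against 19.2% of the table. At least 2 copies of CCAAT before the start were found in 5 of 8 (Cdk1, Ccnb1, Aurka, Bub1 and Ttk), against 10.1% of the table. In Cdk1, Ccnb1 and Aurka the first bases of neighbouring copies lay 32 bases apart, a spacing that was noted after the positions were seen and that 0.359% of the promoters share. The copies lay 26 bases apart in Bub1 and 37 in Ttk. Of these 5, the following 4 stretches show the paired copies, each 5′ to 3′ on the gene's own strand and ending at or before the first annotated base of the gene. Capitals mark CCAAT, or ATTGG where it lies on the opposite strand, and TTTGAA. They cover chr10:69352939-69353032 (minus strand), chr2:172370571-172370690 (minus strand), chr2:127831866-127831979 (minus strand) and chr9:83834569-83834688 (plus strand). A match of letters describes the sequence and does not show that a factor binds there.
Cdk1: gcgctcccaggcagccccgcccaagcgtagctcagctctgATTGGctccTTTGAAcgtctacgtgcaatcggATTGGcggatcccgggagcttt
Aurka: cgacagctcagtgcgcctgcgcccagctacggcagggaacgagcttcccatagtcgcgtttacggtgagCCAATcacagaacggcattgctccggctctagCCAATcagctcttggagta
Bub1: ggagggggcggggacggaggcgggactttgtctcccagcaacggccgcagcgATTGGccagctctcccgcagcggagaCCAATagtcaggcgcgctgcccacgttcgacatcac
Ttk: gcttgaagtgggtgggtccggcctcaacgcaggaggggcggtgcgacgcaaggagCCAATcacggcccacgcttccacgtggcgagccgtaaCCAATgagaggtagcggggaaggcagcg

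Per mouse, the fragments assigned to genes totalled 80874556 to 132958186. Levels within a gene are given as normalised CPM (fragment counts scaled to a common library size), with library sizes scaled by trimmed mean of M-values over all 45 mice. Levels between genes are given as TPM, which are also corrected for the length of all annotated exons of a gene, so they depend on that annotation. The lowest value of any member in any mouse rested on 21 fragments (Ttk), and a level of 3 fragments would equal 0.0226 to 0.0371 CPM. Kif3a, the gene deleted in Pkd1KO+ciliaKO mice, checked the labels: it ran from 4.83 to 7.54 CPM in Pkd1KO+ciliaKO males and from 13.9 to 29.6 CPM in the other males. Of those, noncystic replicate 8 stood alone at 13.9 CPM, and the next lowest, noncystic replicate 2, had 20.5 CPM. In females, the library labelled noncystic replicate 5 had 6.72 CPM and the library labelled Pkd1KO+ciliaKO replicate 6 had 20.5 CPM, each at the level of the opposite group. The edgeR counts of called members and partners that involve females, over all mice, are therefore also given without both. Counts of cell type markers are given only with both. Pkd1 itself, counted over the whole gene, ran from 36.7 to 84.8 CPM in noncystic and from 33.3 to 51.5 CPM in Pkd1KO males, and overlapped between groups in both sexes, so it did not check the labels. Over all genes, 4 males stood apart from the other males on the first principal component (noncystic replicate 3, Pkd1KO replicate 4, Pkd1KO+ciliaKO replicates 6 and 8), and leaving them out together was decided after seeing the data. Females ran from -38.4 to -12.9 on that component. Pkd1KO+ciliaKO male replicates 6 (-23.7) and 8 (-30.2) lay within the female range. Proximal tubule markers (6 of 6 measured) summed to 4825 to 11112 CPM over the 45 mice, against 67.1 to 632 CPM for macrophage markers and 0.479 to 8.77 CPM for T cell markers. Each mouse was counted as 1 replicate.

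Levels of the mitotic genes were low throughout. In noncystic males the highest median belonged to Aurka at 3.40 TPM, followed by Plk1 at 2.30, Ccna2 at 2.17 and Nek2 at 2.12 TPM. Bub1 at 0.463 TPM and Ttk at 0.327 TPM were lowest. In Pkd1KO males Ccna2 (7.74 TPM) and Aurka (7.61 TPM) had the highest medians, and Ttk again the lowest (0.908 TPM). In that group the per-mouse TPM of Ccna2 (3.80 to 19.5) and of Aurka (4.21 to 16.2) overlapped over nearly their whole range, whereas in noncystic males Ttk (0.142 to 0.564 TPM) lay below Aurka (2.18 to 3.87 TPM) in each mouse. The TPM tables of the sexes were normalised separately, so levels in TPM are set side by side only within a sex. In Pkd1KO male replicate 2, 27.2% of the TPM fell to gene classes outside the table, against 5.31% in the library with the least, which lowers each TPM of that mouse.

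Ordered by median normalised CPM, Pkd1KO males came first and Pkd1KO+ciliaKO males second for 10 of 10 genes. Pkd1KO females came next for 7 of them. A noncystic group came last for all 10, the males for 7 genes and the females for 3, and every pair of neighbouring groups in this order overlapped mouse by mouse. The plot of the 10 genes by mouse shows these levels.

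**Figure D1:**
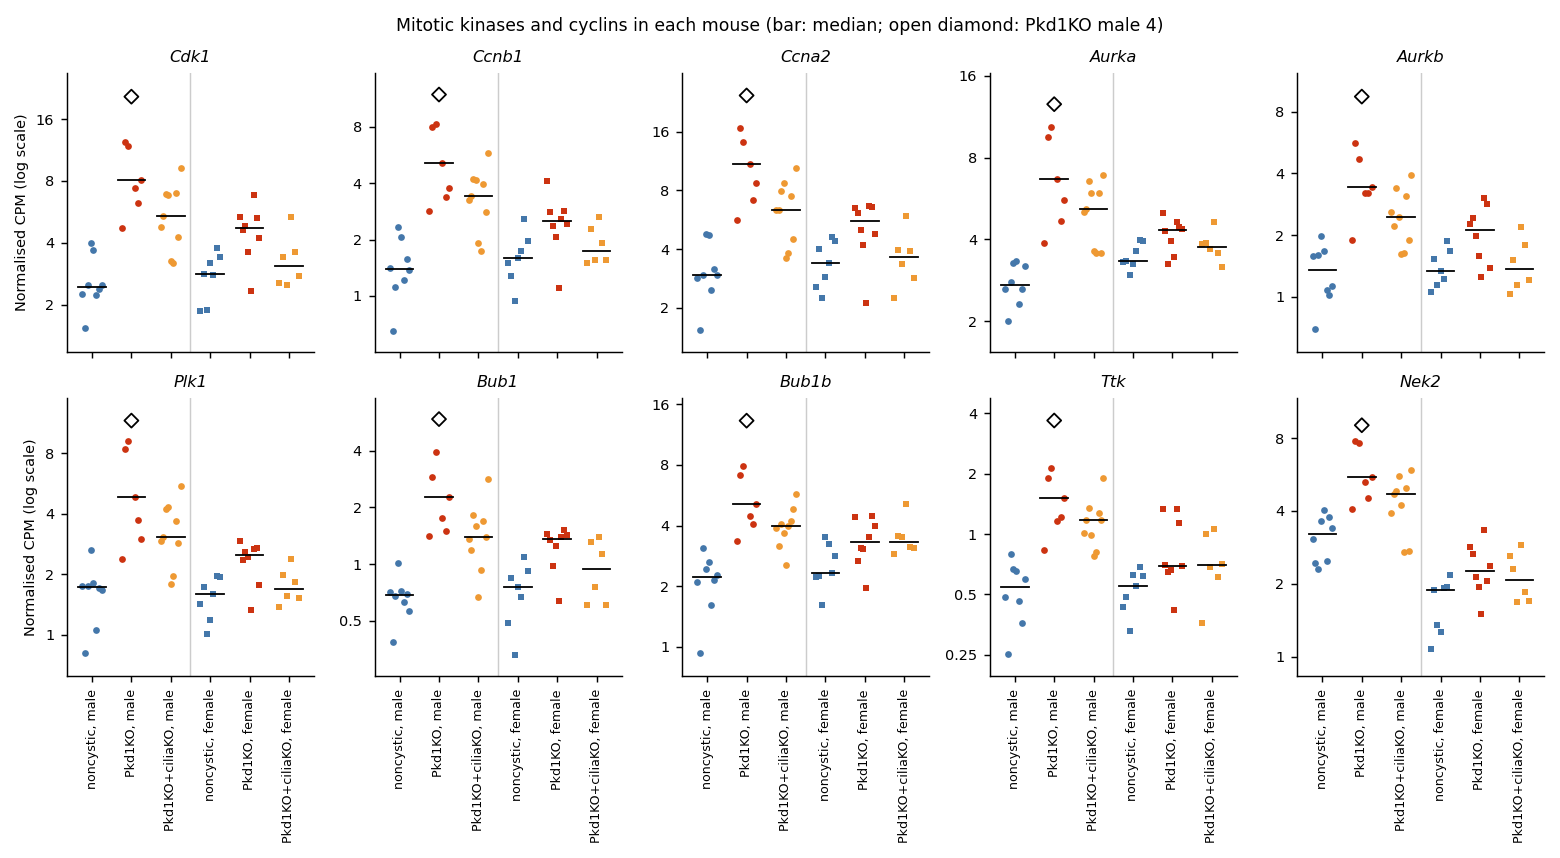
Normalised CPM (log scale) of the 10 mitotic genes in each of 45 mice, by genotype and sex; points are mice, bars are group medians, and the open diamond is Pkd1KO male replicate 4. For each gene the Pkd1KO males have the highest median and replicate 4 is their highest mouse, for example 20.5 CPM for Cdk1 against a group median of 8.04.

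Loss of Pkd1 in males was accompanied by higher levels of all 10 genes. Compared with noncystic males, 10 of 10 rose in Pkd1KO males (edgeR quasi-likelihood test, Benjamini-Hochberg adjusted p between 0.00081 and 0.00346), where 4.05% of all genes tested rose. The log2 fold changes ran from 0.99 (Nek2) to 2.06 (Ccnb1), with a median of 1.81 (3.51-fold), while the median over all genes was -0.01. For 8 of the 10, every Pkd1KO male lay above every noncystic male, which held for 1.4% of all genes; Aurkb and Plk1 overlapped. In bulk libraries, a higher level in each dividing cell and more dividing cells cannot be told apart. The mitotic genes rose from a low base, and no member fell. Without Pkd1KO replicate 4, the male that was highest for all 10 genes, 10 of 10 still rose (3.15% of all genes did), the median log2 fold change was 1.56, and 8 genes again did not overlap (1.51% of all genes). Without all 4 males that stood apart, 10 of 10 rose (3.84% of all genes) with a median of 1.61.

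The 3 genes of the entry switch rose together. Cdk1 (chr10:69335146-69352938, minus strand) had 1.53, 2.43 and 4.00 CPM as the lowest, median and highest of 8 noncystic males. Its values in Pkd1KO male replicates 1 to 7 were 4.73, 12.4, 11.8, 20.5, 7.43, 6.22 and 8.04 CPM. The highest noncystic male lay below the lowest Pkd1KO male, and the log2 fold change was 1.93 ± 0.28 (SE), or 3.82-fold (adjusted p = 0.00081). Ccnb1, cyclin B1 (chr13:100778650-100786570, minus strand), had 0.652, 1.39 and 2.33 CPM in noncystic males and 2.84, 5.14 and 11.9 CPM in Pkd1KO males (lowest, median, highest). It showed the largest change of the 10, 2.06 ± 0.31 (SE) on the log2 scale (adjusted p = 0.00103), with no overlap between the groups. Ccna2, cyclin A2 (chr3:36564865-36572150, minus strand), had 1.55, 2.96 and 4.76 CPM in noncystic males and 5.64, 10.9 and 24.5 CPM in Pkd1KO males, also without overlap. Its change was 1.97 ± 0.29 (SE) (adjusted p = 0.000986). Ccna2 overlaps Exosc9 on the opposite strand, and whether strand was used in counting was not given in the sources used here, so its level is uncertain to that extent. Without replicate 4 the changes were 1.68 ± 0.23 (SE) for Cdk1, 1.84 ± 0.29 (SE) for Ccnb1 and 1.73 ± 0.26 (SE) for Ccna2.

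The Aurora and Polo-like kinases rose as well. Aurka (chr2:172356190-172370535, minus strand), which matures the spindle poles, had in noncystic males 2.00, 2.71 and 3.34 CPM as lowest, median and highest, and 3.87, 6.66 and 12.6 CPM in Pkd1KO males. The groups did not overlap, and the change was 1.45 ± 0.22 (SE) (adjusted p = 0.00103). Aurkb (chr11:69045647-69051664, plus strand), the kinase of the chromosomal passenger complex, had 0.700, 1.35 and 1.97 CPM in noncystic and 1.90, 3.42 and 9.47 CPM in Pkd1KO males. One Pkd1KO male, replicate 1, lay just below the highest noncystic male, and the change was 1.73 ± 0.29 (SE) (adjusted p = 0.00199). Plk1 (chr7:122159439-122169873, plus strand), which acts from entry to cytokinesis, had 0.809, 1.73 and 2.64 CPM against 2.38, 4.87 and 11.6 CPM. Again replicate 1 alone reached into the noncystic range, and the change was 1.89 ± 0.33 (SE) (adjusted p = 0.00235). Plk1 overlaps the antisense gene Gm44985, with the same limit on strand.

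The checkpoint kinases include Bub1 and Ttk, the members lowest in TPM. Bub1 (chr2:127801122-127831865, minus strand), which loads checkpoint proteins at kinetochores, had 0.386, 0.686 and 1.02 CPM in noncystic males. It had 1.41, 2.26 and 5.90 CPM in Pkd1KO males, without overlap, a change of 2.04 ± 0.30 (SE) (adjusted p = 0.000848). Bub1b (chr2:118598211-118641591, plus strand), which encodes BubR1 and holds back the anaphase-promoting complex, had 0.930, 2.21 and 3.08 CPM against 3.37, 5.13 and 13.2 CPM. The groups did not overlap, and the change was 1.57 ± 0.28 (SE) (adjusted p = 0.00298). Ttk (chr9:83834689-83872389, plus strand), the upstream checkpoint kinase also called Mps1, had 0.254, 0.542 and 0.792 CPM against 0.829, 1.51 and 3.69 CPM. Its highest noncystic and lowest Pkd1KO values were close but did not cross, and the change was 1.72 ± 0.30 (SE) (adjusted p = 0.00248).

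Nek2 (chr1:191821444-191833050, plus strand), which loosens the link between centrosomes, changed least. It had 2.31, 3.22 and 4.04 CPM in noncystic males and 4.07, 5.50 and 9.04 CPM in Pkd1KO males, and the ranges just failed to meet. The change was 0.99 ± 0.18 (SE), or 1.98-fold (adjusted p = 0.00346). Nek2 overlaps the antisense gene Gm38037. Without replicate 4, the smallest change of the 10 was again that of Nek2, 0.89 ± 0.18 (SE), and the largest that of Ccnb1.

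Males that had also lost cilia showed the same direction with smaller values. In Pkd1KO+ciliaKO males, 9 of 10 members rose against noncystic males (edgeR quasi-likelihood test, Benjamini-Hochberg adjusted p between 0.00145 and 0.0121 for the 9), where 5.63% of all genes rose. The median log2 fold change was 1.04 (2.06-fold), and that over all genes was 0.01. This comparison uses the same noncystic males as the one above, so the values of both are given side by side without a test of their likeness: Ccnb1 had 1.24 here and 2.06 in Pkd1KO. Bub1 had 1.15 here and 2.04 in Pkd1KO, and Ttk 1.12 and 1.72. The ranges of noncystic and Pkd1KO+ciliaKO males overlapped for 9 of the 10 genes. Aurka was the exception, with 3.56, 5.18 and 6.90 CPM (lowest, median, highest of 9) above a noncystic maximum of 3.34 CPM; such a gap was seen for 0.575% of all genes. Its change was 0.90 ± 0.15 (SE) (adjusted p = 0.00145). Nek2 did not pass the threshold, with a median of 4.68 CPM, a lowest mouse within the noncystic range and a highest of 5.89 CPM, a log2 fold change of 0.49 ± 0.17 (SE) (95% interval 0.14 to 0.84) and an adjusted p of 0.0771. It passed with DESeq2, limma voom and limma on TPM, and without the 4 males that stood apart (log2 fold change 0.57, adjusted p = 0.00818, 7.09% of all genes higher).

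The other members in Pkd1KO+ciliaKO males lay between the other male groups. Cdk1 had 3.19, 5.38 and 9.20 CPM, Ccnb1 1.74, 3.40 and 5.80 CPM and Ccna2 3.58, 6.33 and 10.4 CPM as lowest, median and highest. Aurkb had 1.63, 2.45 and 3.92 CPM and Plk1 1.80, 3.07 and 5.48 CPM. Each of these medians was above the highest noncystic male and below the median of Pkd1KO males, although the lowest Pkd1KO+ciliaKO males reached into the noncystic range. Bub1 had 0.669, 1.39 and 2.83 CPM, Bub1b 2.55, 4.00 and 5.77 CPM and Ttk 0.782, 1.17 and 1.91 CPM. Replicate 9 was the highest of its group for all 10 genes.

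Set directly against each other, Pkd1KO and Pkd1KO+ciliaKO males did not differ beyond the threshold in any of the 10 genes. With edgeR 0 of 10 passed (adjusted p 0.0746 to 0.221), where 1.99% of all genes were higher in Pkd1KO. All 10 log2 fold changes were positive, from 0.50 to 0.92 with a median of 0.82, and 10 of 10 had an unadjusted p under 0.05. Over all genes 3153 of 15991 did, in either direction. DESeq2 called 4 (Cdk1, Ccna2, Aurkb and Bub1), where it called 4.05% of all genes higher. Limma voom with quality weights called 0, where it called 704 of 15991 genes higher. Limma on TPM also called 0, and its share over all genes is not given. With limma voom the median difference was 0.39 and 3 of 10 had an unadjusted p under 0.05 (3667 of 15991 genes). The 95% interval of the difference was 0.33 to 1.51 for Ccna2 and 0.08 to 1.03 for Aurka. Every member overlapped between the groups, where 0.663% of all genes lay wholly higher in Pkd1KO. The ratio of the highest to the lowest mouse was larger in Pkd1KO than in Pkd1KO+ciliaKO males for 9 of 10 genes, but for 6 of 10 without Pkd1KO replicate 4. For Cdk1 it was 4.35 in Pkd1KO males, 2.61 without replicate 4 and 2.89 in Pkd1KO+ciliaKO males. Without Pkd1KO replicate 4 the median difference was 0.56 and 0 of 10 passed, where 2.07% of all genes did. Without all 4 males that stood apart it was 0.45, with 0 of 10 passing against 2.21% of all genes.

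Females showed the same sign with smaller values and no member past the threshold. In Pkd1KO females against noncystic females, edgeR called 0 of 10 (2.02% of all genes were higher), the log2 fold changes ran from 0.26 to 0.78 with a median of 0.60, and the adjusted p from 0.0608 to 0.295. All 10 were positive, and 10 had an unadjusted p under 0.05 (2612 of 15968 genes did, in either direction). DESeq2 called 3, Cdk1, Plk1 and Bub1 (3.74% of all genes were higher), and limma voom called 0 (502 of 15968 genes were higher). Cdk1 had 1.86, 2.82 and 3.79 CPM in noncystic and 2.32, 4.71 and 6.87 CPM in Pkd1KO females, a difference of 0.71 ± 0.20 (SE) (95% interval 0.29 to 1.14, adjusted p = 0.0608). Bub1 had 0.328, 0.757 and 1.08 CPM against 0.638, 1.36 and 1.53 CPM, with a difference of 0.78 ± 0.23 (SE) (95% interval 0.29 to 1.27). The groups overlapped for each of the 10 genes, where 0.664% of all genes lay wholly higher in Pkd1KO. Replicate 5 of the Pkd1KO females was the lowest of its group for 9 genes (Cdk1 2.32 CPM), and without it 5 members passed, Cdk1, Ccnb1, Ccna2, Plk1 and Bub1, where 2.69% of all genes did. Without the 2 libraries whose Kif3a went against the label, 0 passed and 2.13% of all genes did, with a median of 0.60.

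The other female members followed the same pattern. Medians in noncystic and Pkd1KO females were 1.60 and 2.50 CPM for Ccnb1, and 3.40 and 5.56 CPM for Ccna2. They were 3.33 and 4.33 CPM for Aurka, 1.33 and 2.12 for Aurkb, and 1.60 and 2.50 for Plk1. Aurka had the smallest ratio of highest to lowest mouse in both groups, 1.35 in noncystic (2.96 to 3.98 CPM) and 1.54 in Pkd1KO females (3.25 to 5.01 CPM). Bub1b had medians of 2.32 and 3.31 CPM, Ttk 0.549 and 0.696, and Nek2 1.89 and 2.25.

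Pkd1KO+ciliaKO females were compared with the same noncystic females. There edgeR, DESeq2 and limma voom each called 0 of 10. Of all genes, 0.67% were higher with edgeR, 469 of 15968 with DESeq2 and 498 of 15968 with limma voom. With edgeR the median log2 fold change was 0.24. Of the 10, 1 had an unadjusted p under 0.05 (Bub1b), where 3413 of 15968 genes did in either direction. Bub1b had 2.90, 3.32 and 5.11 CPM there against 1.62, 2.32 and 3.51 CPM in noncystic females, a difference of 0.48 ± 0.18 (SE) (adjusted p = 0.145). Between Pkd1KO and Pkd1KO+ciliaKO females, each of these tools again called 0. Of all genes, 7.05% were higher in Pkd1KO with edgeR, 1487 of 15968 with DESeq2 and 1467 of 15968 with limma voom. With edgeR 9 of 10 differences were positive with a median of 0.37, and Aurkb and Plk1 had an unadjusted p under 0.05. Over all genes 4419 of 15968 did, in either direction. Bub1b was the member with a negative difference, -0.08 ± 0.18 (SE). The 95% intervals were -0.47 to 0.31 for Bub1b and -0.01 to 0.91 for Cdk1. Without the pair of libraries that went against their labels, 0 passed in either comparison, where 2.16% of all genes rose in Pkd1KO+ciliaKO against noncystic and 6.35% were higher in Pkd1KO than in Pkd1KO+ciliaKO females. The median log2 fold changes without them were 0.29 and 0.30, and 2 members in the former comparison and 0 in the latter had an unadjusted p under 0.05. Over all genes 3631 and 4255 of 15968 did. The plot of fold changes by sex sets these comparisons side by side.

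**Figure D2:**
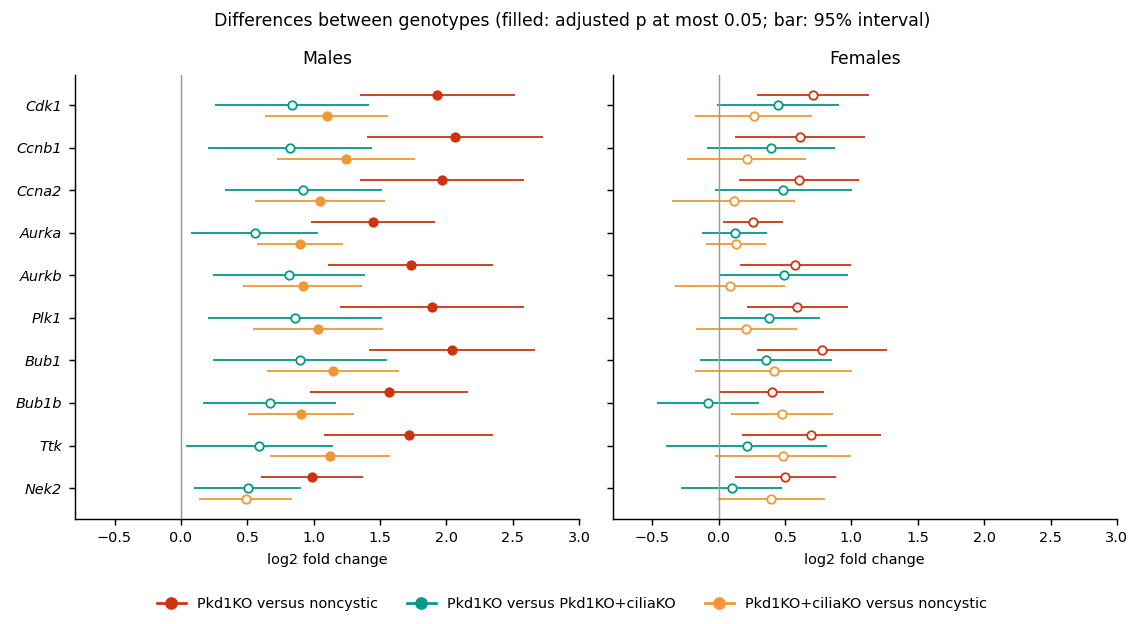
Log2 fold change of each gene in 3 genotype comparisons, males left and females right; points are edgeR estimates, bars their 95% intervals, and filled points have an adjusted p of at most 0.05. Filled points occur in males only, for 10 genes in Pkd1KO versus noncystic and 9 in Pkd1KO+ciliaKO versus noncystic.

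Passing in one sex and not in the other does not show a difference, so the sexes were compared in a fit of all 45 mice. The change on Pkd1 loss was larger in males for all 10 genes, by a median of 1.21 on the log2 scale, but edgeR called 0 of 10 at an adjusted p of 0.05, where 0.00632% of all 15828 genes passed in that direction. Limma voom also called 0 (0 of 15828 genes), and 9 had an unadjusted p under 0.05 with edgeR, where 1279 of 15828 genes did in either direction. Aurka came closest, with a change larger in males by 1.19 ± 0.24 (SE) (95% interval 0.71 to 1.68, adjusted p = 0.0653). Ccnb1 had 1.45 ± 0.38 (SE) (95% interval 0.68 to 2.23) and Nek2 the smallest value, 0.49 ± 0.26 (SE) (-0.04 to 1.02). For Pkd1KO+ciliaKO versus noncystic the median sex difference was 0.79, with 0 called (0.0126% of all genes), 6 at an unadjusted p under 0.05 (869 of 15828 genes), and 1 called by limma voom (Aurka, with 0.727% of all genes). For Pkd1KO versus Pkd1KO+ciliaKO it was 0.43 (0.07 with limma voom), with 0 called by either tool (0.0316% of all genes with edgeR, 53 of 15828 with limma voom). With edgeR 1 had an unadjusted p under 0.05 (Bub1b, with 1256 of 15828 genes). Without Pkd1KO male replicate 4 the medians of these sex differences were 0.98, 0.79 and 0.23, and none of the 10 was called, where 0.00632%, 0.019% and 0.0442% of all genes were. Without both female libraries against their labels the medians were 1.20, 0.74 and 0.48, again with 0 of 10 called (0.00632%, 0.0126% and 0.0316% of all genes) and with 9, 5 and 1 members at an unadjusted p under 0.05. Over all 15828 genes 991, 732 and 1239 had such a p. Without the 4 males that stood apart the medians were 1.00, 0.91 and 0.11. Again 0 of 10 were called (0, 11 and 9 of 15828 genes), and 9, 8 and 0 members had an unadjusted p under 0.05 (842, 1534 and 1476 of 15828 genes).

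Within a genotype, male and female levels were compared in the same fit. In noncystic mice 1 of 10 was higher in males, Nek2, where 14.1% of all genes were. Nek2 had 2.31, 3.22 and 4.04 CPM in noncystic males and 1.08, 1.89 and 2.18 CPM in noncystic females as lowest, median and highest. Every male lay above every female, and the difference was 0.91 ± 0.19 (SE), or 1.88-fold (edgeR quasi-likelihood test, adjusted p = 0.000258). How many of all genes show such a gap between the sexes was not counted. The other 9 had differences of -0.34 (Aurka) to 0.08 (Plk1) with intervals that included 0, for example -0.61 to 0.40 for Cdk1. Without both female libraries against their labels Nek2 alone again passed, with a difference of 0.95 ± 0.20 (SE), where 12.7% of all genes were higher. Limma voom also called Nek2 higher and called Aurka lower in males (-0.41, adjusted p = 0.047). Of 15828 genes it called 3252 higher and 3341 lower in noncystic males. In Pkd1KO mice 10 of 10 were higher in males (16.3% of all genes), by 0.85 for Aurka to 1.40 for Nek2 with a median of 1.13. All 10 were higher without male replicate 4 (15.2% of all genes, median 0.87), without the pair of female libraries (16.0% of all genes, median 1.13) and with limma voom (3100 of 15828 genes, median 0.69). Without the 4 males that stood apart all 10 were also higher (2780 of 15828 genes, median 0.87). Markers of other cells also differed between the sexes, in noncystic mice as well. In noncystic males 1 of 5 macrophage and 2 of 6 proximal tubule markers were higher. Lower were 4 of 5 tubule injury, 2 of 3 mast cell and 2 of 3 principal cell markers. So were 1 of 3 thick ascending limb, 1 of 3 intercalated cell, 1 of 4 T cell and 1 of 2 B cell markers. The following counts are for Pkd1KO mice. In males 5 of 5 macrophage, 2 of 4 T cell and 1 of 4 endothelial markers were higher, and 3 of 3 thick ascending limb, 3 of 3 intercalated cell, 3 of 3 mast cell, 2 of 3 principal cell and 1 of 2 distal convoluted tubule markers were lower. Of 6 proximal tubule markers 2 were higher and 2 lower. Without male replicate 4, 1 macrophage and 0 of the T cell and endothelial markers were higher in males, and the markers called lower included 3 of the thick ascending limb, 3 of mast cells, 2 of principal cells and 1 of intercalated cells. Their part in the sex difference was not tested. In Pkd1KO+ciliaKO mice 6 of 10 were higher in males (11.2% of all genes): Cdk1, Ccnb1, Ccna2, Aurkb, Plk1 and Nek2. Nek2 there had a difference of 1.00 ± 0.19 (SE) (adjusted p = 0.000214), close to that in noncystic mice, and Bub1b the smallest, 0.16 ± 0.23 (SE). Without the pair of female libraries against their labels 2 of 10 passed, Plk1 and Nek2 (9.9% of all genes). Without the 4 males that stood apart 9 of 10 were higher in males (2916 of 15828 genes), with a median of 0.87. Limma voom called 7 higher (3526 of 15828 genes). Among the markers in Pkd1KO+ciliaKO mice, 1 of 5 macrophage and 2 of 6 proximal tubule markers were higher in males, and 2 of 6 proximal tubule, 2 of 3 intercalated cell, 1 of 3 thick ascending limb, 1 of 3 mast cell and 1 of 3 principal cell markers were lower. The plot of male over female levels shows the values of all mice.

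**Figure D3:**
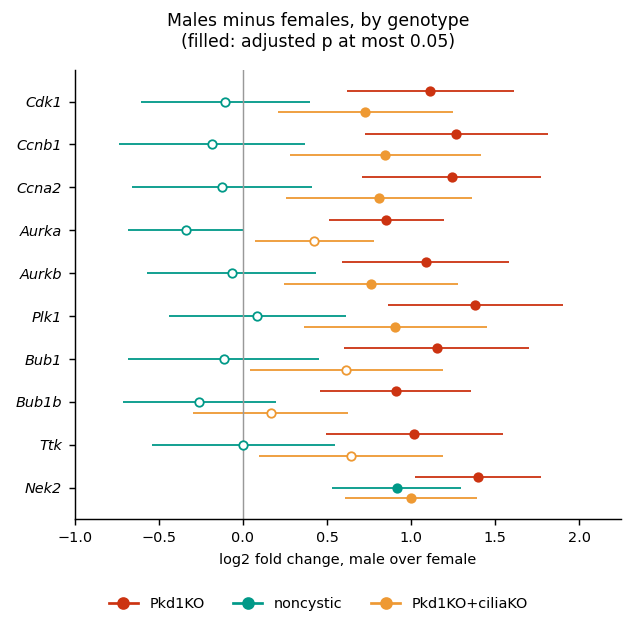
Log2 ratio of male to female level of each gene within each genotype; points are edgeR estimates from a fit of 45 mice, bars their 95% intervals, and filled points have an adjusted p of at most 0.05. In noncystic mice only Nek2 is filled, at 0.91, and in Pkd1KO mice all 10 genes are.

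Within a group, the same mice were high for most members. Pkd1KO male replicate 4 was the highest of its group for 10 of 10 genes and replicate 1 the lowest for 10 of 10. The summed CPM of the 10 genes was 123 in replicate 4, 80.4 in replicate 2, 80.3 in replicate 3 and 31.0 in replicate 1. Pkd1KO+ciliaKO female replicate 4 was highest of its group for all 10, and noncystic male replicate 2 lowest for 9. After group means were subtracted, each member was compared with the mean of the other 9 over the 45 mice. Spearman's rho ran from 0.719 for Bub1b to 0.949 for Cdk1, with 0.775 for Nek2 and 0.816 for Ttk. These points share library and depth, so the values describe the mice and carry no test. Of 15061 genes outside the members, those most like the mean of the 10 were Pbk (rho 0.945), Kif20a (0.943), Ckap2l (0.941), Ckap2 (0.940) and Cdc20 (0.935), while the median over those genes was -0.00119.

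Markers of other cells were read in the same male libraries. Pkd1KO male replicate 4 had 632 CPM summed over 5 macrophage markers (5 of 5 measured), where the other Pkd1KO males had 135 to 256, noncystic males 103 to 154 and Pkd1KO+ciliaKO males 79.6 to 148 CPM. For T cell markers (4 of 4 measured) it had 8.77 CPM against 1.64 to 2.61 in the other Pkd1KO males and 0.752 to 2.15 in noncystic males. For endothelial markers (4 of 4) it had 304 CPM against 64.9 to 120, and its proximal tubule markers were the lowest of all males at 4825 CPM. The B cell markers that passed the filter (2 of 4) summed to at most 1.52 CPM in any mouse. Replicates 3 and 4 also had the highest tubule injury markers of the males, 163 and 127 CPM, against 14.2 to 69.6 in noncystic males. Between Pkd1KO and noncystic males, 2 of 5 macrophage markers rose (Cd74 by 1.63 and Csf1r by 0.35 on the log2 scale), as did 2 of 5 injury markers (Lcn2 by 1.96 and Krt20 by 1.61), and 1 of 6 proximal tubule markers fell (Cubn, -0.46). A mast cell marker (Ms4a2, 3.31) rose and 1 of the thick ascending limb fell (Slc12a1, -0.72), while the T cell, B cell, endothelial, fibroblast, distal convoluted tubule, principal and intercalated cell markers did not pass. Without replicate 4, 1 of 5 macrophage and 0 of 5 injury markers rose in this comparison, and 2 of 3 thick ascending limb markers fell. Between Pkd1KO+ciliaKO and noncystic males other markers passed. The proximal tubule markers Cubn (-0.50), Lrp2 (-0.49) and Slc5a12 (-0.62) and the macrophage marker Csf1r (-0.42) fell. The mast cell markers Ms4a2 (2.21) and Tpsb2 (1.52), the injury marker Lcn2 (1.70), the B cell marker Cd79b (0.95), the distal convoluted tubule marker Pvalb (1.81) and the principal cell marker Fxyd4 (0.47) rose. Between Pkd1KO and Pkd1KO+ciliaKO males, Csf1r (0.77) and the T cell marker Cd8a (1.04) were higher in Pkd1KO, and Slc12a1 (-0.73) and Pvalb (-2.37) were lower. The rise of the 10 mitotic genes was also seen without replicate 4, as given above, and the part of the other markers in it, or in the rise in Pkd1KO+ciliaKO males, was not tested. The plot of summed levels in males shows these values.

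**Figure D4:**
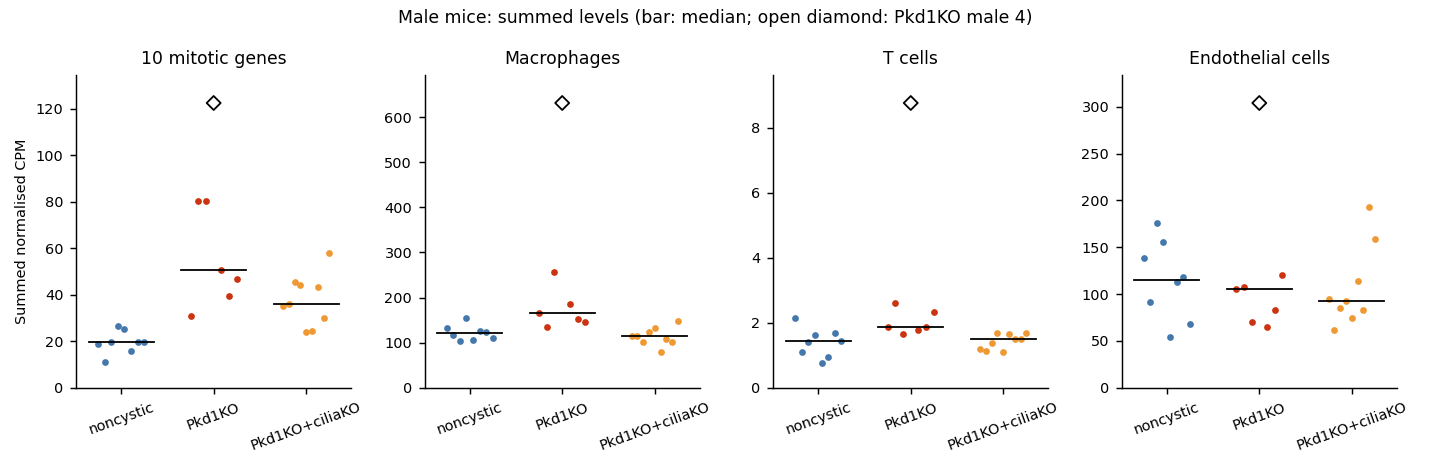
Summed normalised CPM in each male for the 10 mitotic genes and for macrophage, T cell and endothelial markers, by genotype; points are mice, bars group medians, and the open diamond Pkd1KO male replicate 4. That mouse is the highest in each panel, at 123, 632, 8.77 and 304 CPM.

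Most genes listed as partners of these kinases also rose in males. Of 50 listed partners, all measured, 37 rose in Pkd1KO against noncystic males and 0 fell (edgeR, with 4.05% of all genes higher), with a median log2 fold change of 1.33. In Pkd1KO+ciliaKO against noncystic males 34 rose and 1 fell (5.63% of all genes rose), with a median of 0.74. In Pkd1KO against noncystic females 6 rose and 0 fell (2.02% of all genes rose), with a median of 0.36. In Pkd1KO+ciliaKO against noncystic females edgeR called 0 (0.67% of all genes rose), with a median of 0.13 and 10 of 50 at an unadjusted p under 0.05, against 3413 of 15968 genes. Without both female libraries against their labels, 6 rose in Pkd1KO females (2.13% of all genes), and in Pkd1KO+ciliaKO females 0 rose (2.16% of all genes) and 1 fell, Pttg1. The list was chosen with earlier results of these data known, so its counts are a description.

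By role, all 8 mitotic kinesins and spindle proteins rose in Pkd1KO males, with a median of 1.63. The pair with the smallest p were Nusap1 (1.41 ± 0.21 (SE)) and Prc1 (1.89 ± 0.29 (SE)), which bundle spindle microtubules. All 5 chromosomal passenger proteins and Aurora activators rose, among them Tpx2, the activator of Aurora A (1.80 ± 0.28 (SE)), and Birc5, survivin (1.87 ± 0.29 (SE)). All 7 mitotic chromosome genes rose, with Cenpf at 1.91 ± 0.29 (SE) and Mki67, the proliferation marker Ki-67, at 1.83 ± 0.29 (SE). Of 6 other mitotic kinases 3 rose, Pbk (1.83 ± 0.27 (SE)), Melk (1.80 ± 0.30 (SE)) and Plk4, whereas Nek6, Nek7 and Nek9 did not pass.

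The entry switch itself was uneven. Of 10 regulators 5 rose: Ccnb2, cyclin B2 (2.20 ± 0.33 (SE)), Mastl, the Greatwall kinase (0.86 ± 0.15 (SE)), Ccnf, Cdc25c and Cks1b. The phosphatase genes Cdc25a (-0.02) and Cdc25b (0.37), the inhibitory kinase genes Wee1 (-0.30) and Pkmyt1 (0.83), and Cks2 (0.05) did not pass. Of 5 checkpoint proteins that are not kinases 3 rose, Knl1, the kinetochore scaffold of Bub1 (1.48 ± 0.19 (SE)), Zwilch (1.03) and Mad2l1 (0.86 ± 0.16 (SE)), while Bub3 (0.04) and Mad1l1 (-0.05) did not pass. Of 6 genes of the anaphase-promoting complex group 3 rose, Ube2c, its ubiquitin-conjugating enzyme (2.06 ± 0.30 (SE)), Cdc20, its mitotic activator (1.96 ± 0.31 (SE)), and Espl1, separase. Fzr1, the activator used after mitosis, had -0.02. The 13 partners that did not pass had log2 fold changes of -0.30 to 0.83, and the plot of partners by role shows them.

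**Figure D5:**
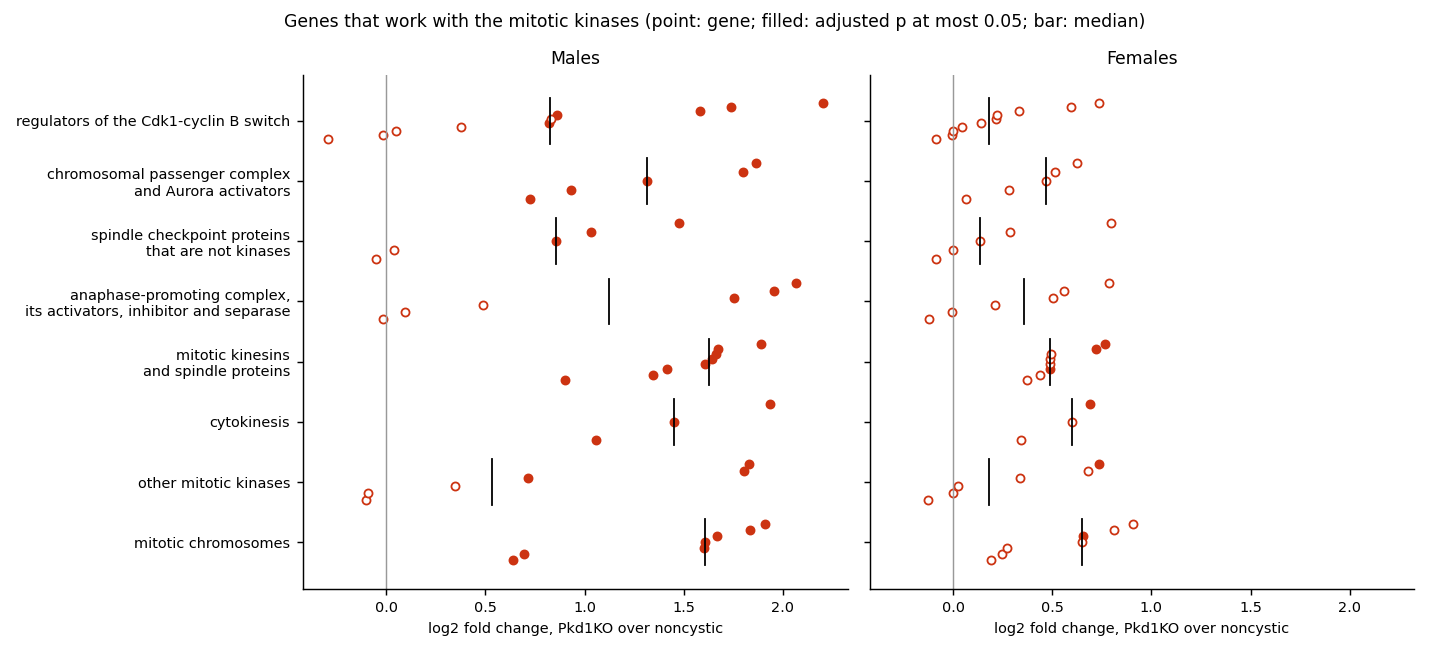
Log2 fold change in Pkd1KO over noncystic mice of 50 partner genes by role, males left and females right on the same scale; points are genes, filled where the adjusted p is at most 0.05, and bars are role medians. In males 37 of 50 are filled, including every gene of 4 roles, and in females 6 of 50.

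Between Pkd1KO and Pkd1KO+ciliaKO males, where no member passed, 2 of 50 partners were higher in Pkd1KO, Ect2 and Pttg1 (1.99% of all genes were). Between females of these genotypes 3 of 50 were, Ect2 and Ube2c among them (7.05% of all genes). Without both female libraries against their labels 4 of 50 were (6.35% of all genes). All 3 cytokinesis genes rose in Pkd1KO males: Anln (1.94 ± 0.28 (SE)), Racgap1 (1.45 ± 0.23 (SE)) and Ect2, the exchange factor that starts the cleavage furrow (1.05 ± 0.17 (SE)). Against Pkd1KO+ciliaKO males, where 0 of the 10 members passed, Ect2 was higher in Pkd1KO by 0.99 ± 0.13 (SE) (adjusted p = 0.000314), and it did not differ between Pkd1KO+ciliaKO and noncystic males beyond the threshold (0.07, 95% interval -0.23 to 0.37). In females Ect2 was also higher in Pkd1KO than in noncystic (0.69 ± 0.12 (SE), adjusted p = 0.00416) and Pkd1KO+ciliaKO mice (1.15 ± 0.19 (SE), adjusted p = 0.00179). Without both female libraries against their labels these values were 0.73 (adjusted p = 0.00419) and 1.19 (adjusted p = 0.00265). Ect2, like the next gene, was singled out after its values were seen in all comparisons. Pttg1, securin, the inhibitor of separase (chr11:43420250-43426251, minus strand), was the partner that fell. It had 19.5, 28.4 and 37.6 CPM in noncystic, 15.7, 33.3 and 36.6 CPM in Pkd1KO and 4.02, 4.81 and 5.90 CPM in Pkd1KO+ciliaKO males (lowest, median, highest), so every Pkd1KO+ciliaKO male lay below every other male. How many of all genes show such a gap was not counted. Noncystic male replicates 3, 6, 7 and 8 had 19.5 to 21.4 CPM and replicates 1, 2, 4 and 5 had 35.4 to 37.6 CPM, so no mouse lay near the median. Pkd1KO male replicates 3 and 4 had 15.7 and 22.6 CPM, and the other Pkd1KO males 32.4 to 36.6 CPM. The cause of this split was not tested. The change against noncystic was -2.51 ± 0.16 (SE) in Pkd1KO+ciliaKO males (adjusted p = 5.73e-09) and 0.09 in Pkd1KO males (95% interval -0.34 to 0.53). In females Pttg1 had 23.3, 37.8 and 47.0 CPM in Pkd1KO mice. The libraries whose Kif3a went against their labels stood apart in Pttg1 too, with 6.37 CPM in the library labelled noncystic replicate 5 and 32.7 CPM in the library labelled Pkd1KO+ciliaKO replicate 6, where the groups' medians were 41.9 and 4.94 CPM. The change in Pkd1KO+ciliaKO against noncystic females was -1.99 ± 0.55 (SE) with both libraries (adjusted p = 0.0645) and -3.17 ± 0.10 (SE) without them (adjusted p = 5.4e-10). Pttg1 and Kif3a lie on the same chromosome, with Kif3a at chr11:53567379-53601967. In females Ube2c was also higher in Pkd1KO than in Pkd1KO+ciliaKO mice (1.16, adjusted p = 0.00282; 1.16 without both libraries, adjusted p = 0.00578). The 6 partners that rose in Pkd1KO against noncystic females were Kif11, Kif20a, Prc1, Ect2, Melk and Mki67, with log2 fold changes of 0.49 to 0.77. Without both libraries Mki67 no longer passed and Ncapg did.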

How the data were processed

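TRAP libraries from kidneys of 45 mice were sequenced by the authors as paired reads of 150 bases. The submitters' processing notes name fastp 0.20.0, STAR 2.7.9, featureCounts 2.0.0 and build GRCm38.p6, and whether strand was used in counting was not given in the sources used here. The deposited count tables hold unnormalised fragment counts per gene, 1 table per sex, and the deposited TPM tables hold TPM that the authors computed per gene for each sex separately. Fragment totals of 80874556 to 132958186 per mouse set the counting error. Groups came from the labels.

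Within each sex, a protein-coding gene was kept when 20% or more of the mice had 6 or more counts, and kept genes were tested with edgeR 4.0.16 (quasi-likelihood test, trimmed mean of M-values, R 4.3.3) for each pair of genotypes within a sex, and a fit of all 45 mice gave the comparisons between sexes. Benjamini-Hochberg adjustment covered all genes tested, with a threshold of 0.05, and 95% intervals used the t distribution of the fit. Alternatives were DESeq2 1.42.0 (genotype comparisons), DESeq2 size factors, limma 3.58.1 (voom with quality weights, and log2(TPM + 1) with a pseudocount of 1), no filter, a single fit of the genotypes, a replicate block and leaving out mice. On data simulated for Pkd1KO versus noncystic males (15991 genes), 73% of genes changed by 1 on the log2 scale and 93% of those changed by 2 were recovered. Replicates within a group were compared by a chi-square test, and no pair agreed within sampling noise. The members, partner and marker lists, the 4 males left out together and the motifs were chosen with earlier results of these data known. Named partners were the pair with the smallest p in each role, in males, plus those named as chosen after their values were seen, and the remaining partners are given with counts. Results on some marker genes, and on 1 marker list, are not reported here.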

Additional observations from a re-analysis of the deposited data

Results flagged for a closer look

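In 60 groups of 6 to 9 mice (10 genes in 6 groups), the gap between the most extreme mouse and its neighbour was compared with Dixon's critical value, which chance passes in about 1 of 20 groups, and 2 passed. Bub1b in Pkd1KO+ciliaKO female replicate 4 stood at 5.11 CPM, with the next mouse of the group at 3.56 CPM. Ttk in Pkd1KO+ciliaKO male replicate 9 stood at 1.91 CPM, with the next mouse at 1.35 CPM. Both mice were the highest of their group for all 10 genes. Without these mice, Bub1b and Ttk stayed on the same side of the threshold in the genotype comparisons of that sex, and the difference of Bub1b between Pkd1KO and Pkd1KO+ciliaKO females was 0.05 on the log2 scale in place of -0.08.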

How the results depend on the processing

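Of the values of single genes under the alternatives run, 4324 kept their direction and their side of the threshold, 32 newly passed it and 30 no longer did. A further 24 changed sign, none of them past the threshold before or after, and 14 of these were in male versus female noncystic mice (Aurkb, Plk1, Bub1 and Ttk). The counts of 10 members in Pkd1KO and 9 in Pkd1KO+ciliaKO against noncystic males stayed within 9 and 10 under every alternative run, as did the 10 in male versus female Pkd1KO mice. Between Pkd1KO and Pkd1KO+ciliaKO males the count of 0 became 4 with DESeq2, 1 with the 3 genotypes in one fit and 0 to 1 when single mice were left out (1, Ccna2, without Pkd1KO male replicate 1). Between Pkd1KO and noncystic females the count of 0 became 3 with DESeq2 and 0 to 5 when single mice were left out (5 without Pkd1KO female replicate 5). The sex difference of Pkd1KO versus noncystic had 0 to 1 members when single mice were left out (1, Aurka, without Pkd1KO male replicate 1, 6 or 7 or noncystic male replicate 5), and that of Pkd1KO+ciliaKO versus noncystic had 1 with limma voom. In male versus female Pkd1KO+ciliaKO mice the count of 6 became 2 without both female libraries against their labels. It became 9 without the 4 males that stood apart and 7 with limma voom. When single mice were left out it ran from 2 to 7. It was 2 without Pkd1KO+ciliaKO male replicate 9 or female replicate 1, 3 or 6, and 3 without male replicate 7. The cause of these changes was not tested.

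Replicate numbers are shared between groups in the labels. Correlations between the deviations of same-numbered mice ran from -0.35 to 0.45, and 4 of 7 pairs at most were over 0.1 in Pkd1KO versus noncystic males. Male replicate 5 had 0.39, 0.45 and 0.34 in the male comparisons. Mice of different numbers were not correlated as a baseline, so whether same-numbered mice deviated together was not tested. With the replicate block the counts were 10, 0 and 9 in males, 0 in each comparison of females and 0 in each sex difference, and the block changed no call. It could not be fitted to male versus female comparisons, since the blocks were set within each sex, so that sex lies between them. Low counts limit Ttk most, with as few as 21 fragments in a mouse.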
